A study of Mus musculus with 6 samples.

Results

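The immunoglobulin heavy and light chain genes were examined in 6 mouse liver tumors. The set held every gene of the expression table named as a heavy chain V gene, a heavy chain constant gene (Ighm, Ighd, Igha or an Ighg gene), a kappa or lambda V or constant gene, or Jchain, with a summed count of at least 30 reads over the tumors. It came to 126 of the 34745 genes in the table. Of these, 54 were IGHV genes, 58 IGKV genes, 2 IGLV genes, 7 heavy chain constant genes, 1 the kappa constant gene Igkc, 3 lambda constant genes and 1 Jchain. The names fitted 363 genes in all, and 165 of those had no count in any tumor. The members were thus chosen by their name and by their summed count, and that count is not a result. Just inside the limit were Igkv3-5 (34 counts), Ighv1-5 (33), Ighv1-58 (33) and Ighv1-12 (31), and just outside it Igkv10-95 (29), Igkv4-63 (29), Ighv5-9-1 (28) and Ighv2-3 (28).

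Antibodies are made by B cells and, in large amounts, by plasma cells. Each B cell joins a V segment, a J segment and, for the heavy chain, a D segment into 1 rearranged gene that its whole clone of daughter cells keeps, so a V gene that takes a large share of a tissue's V transcripts can come from few clones. The constant gene sets the isotype: IgM and IgD are made before class switching, and IgG and IgA after it. IgA and IgM can be assembled into polymers by the joining chain encoded by Jchain, and hepatocytes and other epithelia carry such polymers through the polymeric immunoglobulin receptor, Pigr.

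The tumors were compared to ask how loss of Prmt3, which encodes a protein arginine methyltransferase, in liver cells bears on tumor expression. Both groups carried floxed Prmt3 alleles. Prmt3 LKO mice also carried Cre under the albumin promoter, which acts in hepatocytes and not in B cells, and Prmt3 f/f mice served as controls. All were given diethylnitrosamine (25 mg/kg at 2 weeks of age) and, from 6 weeks, 10% carbon tetrachloride (0.5 ml/kg), and the tumors were taken at 26 weeks. There were 3 tumors per group, named here by the numbers in their labels (7, 66 and 71 for Prmt3 f/f, and 92, 93 and 94 for Prmt3 LKO). The mice were male per the study's methods, their strain is not given in the sources used here, and the labels do not say whether the tumors of a group came from separate mice, so p-values measure only the spread between these tumors. Library totals ran from 18440244 to 27976598 counts. Prmt3 stood at 6.595, 8.48 and 10.2 CPM (counts scaled to a common library size) in the controls, against 2.80, 2.03 and 3.82 CPM after deletion, with no overlap. Its log2 fold change was -1.55 (SE 0.29; edgeR quasi-likelihood test, adjusted p = 0.592; exact two-sided permutation p = 0.1, the smallest that 3 against 3 tumors allow). The liver marker Alb, encoding albumin, was between 108120 and 164589 CPM in all 6 tumors.

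The germline segments behind the tumors' leading V genes are shown first, since later values are for these genes by name and the sequences show how unlike they are. For each Prmt3 f/f tumor they are the IGHV and the IGKV gene with most counts, given 5′ to 3′ as up to the last 300 bases of the V exon, from the GENCODE M21 transcripts on GRCm38. Capitals mark the stretch from the last cysteine codon to the end of the segment, where the third complementarity-determining region begins. In tumor 7 these were Ighv1-55 (chr12:115208095-115208394, minus strand) and Igkv10-96 (chr6:68631963-68632260, minus strand).
Ighv1-55: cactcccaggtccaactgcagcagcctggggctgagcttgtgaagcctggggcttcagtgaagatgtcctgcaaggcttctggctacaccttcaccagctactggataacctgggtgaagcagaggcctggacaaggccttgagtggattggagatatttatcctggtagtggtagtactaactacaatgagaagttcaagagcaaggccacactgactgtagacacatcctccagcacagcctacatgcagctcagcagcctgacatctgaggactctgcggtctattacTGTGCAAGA
Igkv10-96: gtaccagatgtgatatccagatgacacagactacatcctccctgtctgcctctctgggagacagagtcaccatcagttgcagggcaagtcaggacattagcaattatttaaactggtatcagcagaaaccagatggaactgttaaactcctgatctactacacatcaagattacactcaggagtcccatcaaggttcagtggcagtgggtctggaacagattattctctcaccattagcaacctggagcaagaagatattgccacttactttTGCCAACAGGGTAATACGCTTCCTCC
In tumor 66 they were Ighv1-82 (chr12:115952538-115952837, minus strand) and Igkv19-93 (chr6:68736297-68736594, minus strand).
Ighv1-82: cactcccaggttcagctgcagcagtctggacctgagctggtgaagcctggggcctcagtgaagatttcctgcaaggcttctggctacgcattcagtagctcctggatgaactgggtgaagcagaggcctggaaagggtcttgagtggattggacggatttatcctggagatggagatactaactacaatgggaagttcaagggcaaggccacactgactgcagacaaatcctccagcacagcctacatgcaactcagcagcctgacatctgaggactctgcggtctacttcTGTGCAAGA
Igkv19-93: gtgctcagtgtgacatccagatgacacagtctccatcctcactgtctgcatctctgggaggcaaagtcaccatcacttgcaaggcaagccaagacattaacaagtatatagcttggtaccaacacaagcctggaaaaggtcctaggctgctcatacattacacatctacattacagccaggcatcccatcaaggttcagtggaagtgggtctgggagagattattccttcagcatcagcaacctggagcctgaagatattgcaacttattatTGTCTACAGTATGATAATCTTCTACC
In tumor 71 they were Ighv8-12 (chr12:115647945-115648242, minus strand) and Igkv4-57 (chr6:69575975-69576272, minus strand).
Ighv8-12: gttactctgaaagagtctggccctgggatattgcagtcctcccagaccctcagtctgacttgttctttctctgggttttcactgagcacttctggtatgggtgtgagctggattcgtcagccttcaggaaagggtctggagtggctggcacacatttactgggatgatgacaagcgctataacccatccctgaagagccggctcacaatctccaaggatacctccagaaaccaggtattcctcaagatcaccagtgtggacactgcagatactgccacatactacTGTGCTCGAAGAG
Igkv4-57: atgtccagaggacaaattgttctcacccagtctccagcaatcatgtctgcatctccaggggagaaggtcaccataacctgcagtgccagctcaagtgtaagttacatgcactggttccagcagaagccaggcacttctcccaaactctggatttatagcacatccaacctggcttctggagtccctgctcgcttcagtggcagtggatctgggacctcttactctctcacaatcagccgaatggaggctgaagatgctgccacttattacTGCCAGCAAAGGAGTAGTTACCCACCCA
Over the printed bases, Ighv1-55 and Ighv1-82 were 89.5% identical, while Ighv8-12 was 57.7% identical to Ighv1-55 and 59.8% to Ighv1-82. The leading IGKV segments were 65.5% to 78.6% identical to each other.

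Other V genes are much closer to each other, which limits how reads could be assigned to them. Of the 112 IGHV and IGKV members, 21 had another V gene whose transcript was at least 97% identical, and their separate counts are uncertain. The pair Igkv17-127 (chr6:67861362-67861659, plus strand) and Igkv17-121 (chr6:68037021-68037318, plus strand) is shown as an example, with the 6 bases that differ among 298 in capitals.
Igkv17-127: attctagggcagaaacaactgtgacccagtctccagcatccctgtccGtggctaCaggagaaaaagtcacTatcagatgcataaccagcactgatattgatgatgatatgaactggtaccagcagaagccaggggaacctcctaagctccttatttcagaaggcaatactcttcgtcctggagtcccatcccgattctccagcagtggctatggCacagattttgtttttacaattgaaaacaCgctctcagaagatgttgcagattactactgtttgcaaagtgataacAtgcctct
Igkv17-121: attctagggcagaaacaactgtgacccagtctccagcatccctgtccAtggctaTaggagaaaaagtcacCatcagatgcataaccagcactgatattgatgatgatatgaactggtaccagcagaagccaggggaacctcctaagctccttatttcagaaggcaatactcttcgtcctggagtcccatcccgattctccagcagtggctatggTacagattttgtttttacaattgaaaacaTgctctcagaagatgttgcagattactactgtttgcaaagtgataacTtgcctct
Both peaked in the same tumor: Igkv17-127 stood at 1.66, 10.1 and 0.808 CPM in Prmt3 f/f tumors 7, 66 and 71, and Igkv17-121 at 2.26, 4.57 and 0.422 CPM. Counts of 6 members are uncertain for another reason, an overlap with a second annotated gene; Igkc, Iglc1, Iglc2, Iglc3 and Iglv1 are among them.

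Immunoglobulin transcripts were less abundant in every Prmt3 LKO tumor than in any Prmt3 f/f tumor. The summed level of the 126 genes was 700.5, 709.2 and 940.7 CPM in Prmt3 f/f tumors 7, 66 and 71, and 180.4, 418.4 and 103.3 CPM in Prmt3 LKO tumors 92, 93 and 94. The mean was 783 ± 136 CPM in Prmt3 f/f and 234 ± 164 CPM in Prmt3 LKO (SD, n = 3), so that the Prmt3 LKO mean was 29.9% of the control mean, a log2 ratio of -1.74. The groups did not overlap, but the Prmt3 LKO tumors differed among themselves, with tumor 93 at the top of its group. Without tumor 93 the log2 ratio was -2.47. In bulk tissue, fewer antibody-producing cells and less immunoglobulin RNA per cell cannot be told apart.

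In the group means, the heavy and kappa chain classes were lower to a like extent, and the lambda genes less so. IGHV genes summed to 78.6 ± 15.1 CPM in Prmt3 f/f and 20.04 ± 13.9 in Prmt3 LKO tumors, which is 25.5% of the control mean. IGKV genes summed to 107 ± 17.7 and 30.3 ± 20.03 CPM (28.4%). Heavy chain constant genes summed to 379 ± 74.6 and 115 ± 78.9 CPM (30.3%). In these 3 classes every Prmt3 LKO tumor was below every Prmt3 f/f tumor. Lambda constant genes summed to 5.77 ± 2.82 and 4.06 ± 4.25 CPM (70.4%), and IGLV genes to 5.41 ± 1.84 and 3.16 ± 2.97 CPM (58.4%). In both the groups overlapped, through tumor 93 alone, at 8.97 CPM for lambda constant genes and 6.58 CPM for IGLV genes. Tumors 92 and 94 were below every control, at 1.66 and 1.56 CPM for lambda constant genes and 1.49 and 1.41 CPM for IGLV genes.

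Single genes followed the sums in most cases. The mean CPM was lower in Prmt3 LKO tumors for 117 of the 126 genes (92.9%), against 50.8% of the 14981 genes of the table with a summed count of at least 30. For 36 genes (28.6%) all Prmt3 LKO tumors were below all Prmt3 f/f tumors, against 6.84% of those 14981 genes. For 0 members were they all above, against 5.41%. The median ratio of the group means over the members was 0.323.

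No member passed the test across all genes. A count filter kept 77 of the 126 members, and 3 of these (Ighv1-22, Ighv1-54 and Igkv8-19) passed it through the Prmt3 f/f tumors alone. With edgeR's quasi-likelihood test over 13892 genes, 0 of the 77 were lower and 0 higher at an adjusted p under 0.05 and a 2-fold change, as for 0% of all genes tested in either direction; the smallest adjusted p of a member was 0.592. By the unadjusted p (under 0.05, 2-fold), 31 of the 77 were lower, against 1.77% of all genes tested, and 0 were higher, against 0.317%; without those 3 members the lower count was 29 of 74. Without the count filter, the same test covered all 126 members. By the unadjusted p (under 0.05, 2-fold), 58 (46.0%) were lower, against 2.24% of 20277 genes, and 0 were higher, against 0.587%. These shares are not a like comparison, since the 20277 genes had any count and the members at least 30. Some members reached that sum almost wholly through controls, which favors a lower Prmt3 LKO value. Ighv8-12, for instance, had 6, 23 and 244 counts in Prmt3 f/f against 0, 2 and 0 in Prmt3 LKO tumors. The median log2 fold change of the 77 genes was -1.48, with 71 negative and 6 positive, while the median of all genes tested was 0.0004.

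Of the other tests, DESeq2 and the edgeR exact test did make calls, while limma-voom made 0. DESeq2 called 9 of the 77 lower at an adjusted p under 0.05 (Ighg2c, Igkc, Igkv10-96, Igkv19-93, Ighv1-81, Ighv1-55, Ighv1-82, Ighv1-22 and Ighv1-53), against 0.317% of all genes, and 0 higher, against 0.072%. The edgeR exact test called 5 lower (Ighg2c, Igkc, Igkv10-96, Igkv19-93 and Ighv1-81), against 0.252%, and 0 higher, against 0.036%. All 5 were among the 9. Without the 3 members that passed the filter through the Prmt3 f/f tumors alone, which takes out Ighv1-22, DESeq2 called 8 and the exact test 5 of 74.

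**Figure D1:**
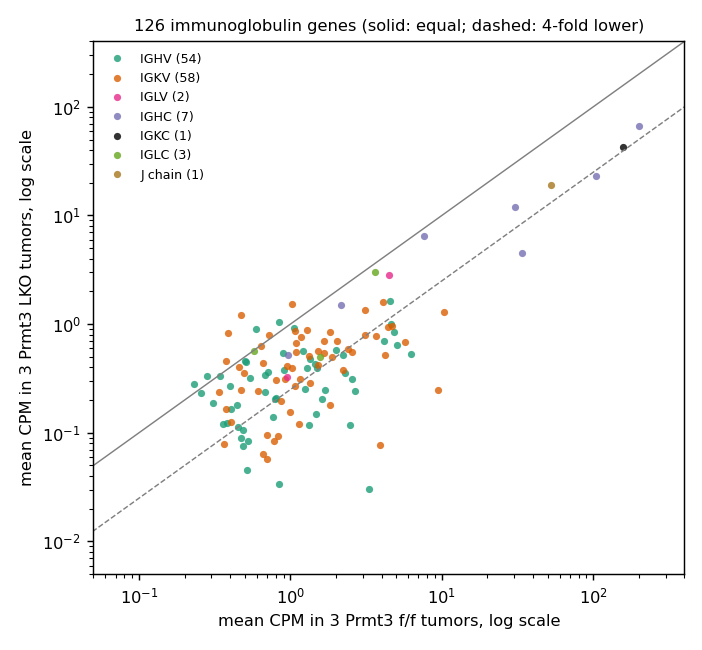
Mean CPM of each of the 126 genes in the 3 Prmt3 f/f tumors (x axis, log scale) and in the 3 Prmt3 LKO tumors (y axis, log scale), colored by class, with the number of genes in parentheses. The solid line marks equal means and the dashed line a 4-fold lower mean in Prmt3 LKO; 117 points lie below the solid line.

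Among the light chain constant genes, Igkc carried most of the signal. Igkc, at chr6:70726435-70726966 on the plus strand, encodes the constant region of kappa chains, which most mouse antibodies carry. It stood at 144.5, 131.7 and 191.9 CPM in Prmt3 f/f tumors and at 33.9, 74.7 and 19.3 CPM in Prmt3 LKO tumors, with no overlap between groups. Its log2 fold change was -1.87 (SE 0.46, edgeR quasi-likelihood, adjusted p = 0.592). Per transcript length it had the highest level of the constant genes, with an authors' FPKM averaging 296 in Prmt3 f/f and 80.9 in Prmt3 LKO tumors.

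The lambda constant genes were far lower. Iglc1 was at 3.46, 1.31 and 6.11 CPM in Prmt3 f/f and at 0.914, 7.21 and 0.854 in Prmt3 LKO tumors, so that its highest value was in Prmt3 LKO tumor 93. Iglc2 was at 2.31, 0.886 and 1.51 CPM in Prmt3 f/f and at 0.514, 0.631 and 0.352 in Prmt3 LKO tumors, without overlap (log2 fold change -1.64, SE 0.48, edgeR adjusted p = 0.606). Iglc3, which did not pass the count filter, was at 0.876, 0.420 and 0.422 against 0.228, 1.13 and 0.352 CPM. Of the V genes that pair with them, Iglv1 was at 4.797, 2.191 and 6.39 against 1.26, 6.04 and 1.205 CPM, again with tumor 93 at a control level, and Iglv2 at 1.15, 1.16 and 0.527 against 0.228, 0.541 and 0.201 CPM.

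Lambda therefore took a larger part of the light chain constant counts in Prmt3 LKO tumors. The lambda share was 4.39%, 1.94% and 4.02% in Prmt3 f/f tumors 7, 66 and 71, and 4.65%, 10.7% and 7.45% in Prmt3 LKO tumors 92, 93 and 94. The groups did not overlap, yet the Wilson 95% intervals of the nearest pair did (3.74% to 5.15% in tumor 7 and 3.26% to 6.61% in tumor 92). These intervals, like all intervals on shares here, cover counting error only.

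**Figure D2:**
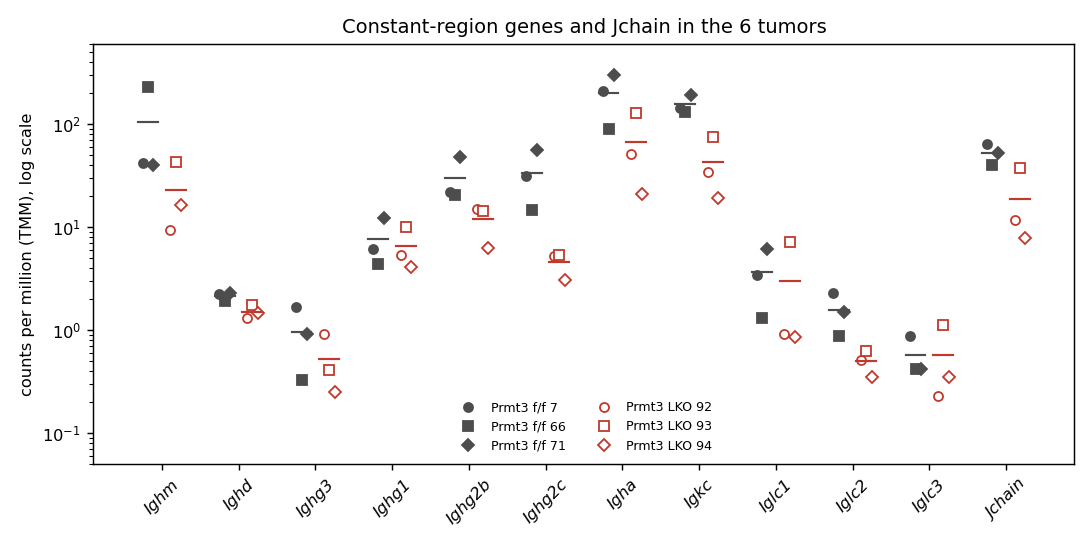
CPM on a log scale (y axis) of the 7 heavy chain constant genes in their order along the locus, the 4 light chain constant genes and Jchain (x axis), with 1 point per tumor (filled, Prmt3 f/f; open, Prmt3 LKO) and a bar at the group mean. Ighg2c is separated between groups, 14.8 to 55.5 against 3.06 to 5.32 CPM, while Ighg1 overlaps.

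The heavy chain constant genes lie side by side on chromosome 12, on the minus strand, in the order Ighm, Ighd, Ighg3, Ighg1, Ighg2b, Ighg2c and Igha. Ighm, first of the unswitched pair, was at 41.6, 231.9 and 40.2 CPM in Prmt3 f/f tumors and 9.31, 42.8 and 16.5 in Prmt3 LKO tumors. Prmt3 f/f tumor 66 stood apart, and the others overlapped between groups through tumor 93. Its log2 fold change was -2.19 (SE 0.82, edgeR adjusted p = 0.693), and without tumor 66 it was -0.84. Ighd, the marker of naive mature B cells, varied little within groups, at 2.26, 1.91 and 2.28 CPM against 1.31, 1.76 and 1.46 CPM. It did not overlap between groups, but its log2 fold change was only -0.51 (SE 0.29, edgeR adjusted p = 0.835). The ratio of Ighm to Ighd counts was 18.4, 121 and 17.6 in Prmt3 f/f and 7.09, 24.4 and 11.3 in Prmt3 LKO tumors, so that the IgM excess of tumor 66 had no counterpart in Ighd.

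Igha, the constant gene of IgA, had the highest counts of any member. It was at 208.5, 89.4 and 300.2 CPM in Prmt3 f/f and 51.2, 128.9 and 21.1 CPM in Prmt3 LKO tumors, where tumor 93 was above Prmt3 f/f tumor 66. The log2 fold change was -1.57 (SE 0.67, edgeR adjusted p = 0.755), with -2.46 when tumor 93 was left out and -1.15 when tumor 94 was. Jchain, whose product joins IgA or IgM units, was at 64.3, 39.7 and 52.6 CPM against 11.7, 37.3 and 7.78 CPM. Its groups were separated by the narrow gap between 39.7 and 37.3 (log2 fold change -1.46, SE 0.54, edgeR adjusted p = 0.684). Jchain counts per Igha and Ighm count were 0.257, 0.124 and 0.154 in Prmt3 f/f and 0.193, 0.217 and 0.207 in Prmt3 LKO tumors, which overlapped.

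The IgG genes were not alike. Ighg2c was at 31.3, 14.8 and 55.5 CPM in Prmt3 f/f tumors and at 5.26, 5.32 and 3.06 CPM in Prmt3 LKO tumors. Every Prmt3 LKO tumor, tumor 93 included, was below the lowest control. Its log2 fold change of -2.90 (SE 0.48) had an unadjusted p of 0.0004 and an edgeR adjusted p of 0.592, and over the other fits and tumors left out the adjusted p ran from 5.71e-07 with DESeq2 to 0.996. Ighg2b was at 21.8, 20.5 and 48.4 CPM against 14.9, 14.4 and 6.33 CPM, also without overlap (log2 fold change -1.35, SE 0.43, edgeR adjusted p = 0.646).

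Ighg1 gave another picture, with 6.09, 4.38 and 12.4 CPM in Prmt3 f/f and 5.37, 10.1 and 4.07 CPM in Prmt3 LKO tumors. Its groups overlapped, and its log2 fold change was -0.23 (SE 0.46, edgeR adjusted p = 0.978), which turned positive, at 0.32, without Prmt3 f/f tumor 71. Ighg3 was low throughout, at 1.66, 0.326 and 0.914 against 0.914, 0.406 and 0.251 CPM. The number of Ighg2c counts per Ighg1 count was 5.14, 3.37 and 4.49 in Prmt3 f/f and 0.979, 0.529 and 0.753 in Prmt3 LKO tumors, without overlap. That ratio was chosen after its values were seen and was not tested. Ighg2b counts per Ighg1 count were 3.58, 4.68 and 3.91 against 2.78, 1.43 and 1.56, also without overlap.

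As shares of the heavy chain constant counts, IgA led in 5 of the 6 tumors, and in 4 when the genes were scaled to their length by FPKM. Igha took 66.6%, 24.6% and 65.3% in Prmt3 f/f tumors 7, 66 and 71, and 58.0%, 63.3% and 40.0% in Prmt3 LKO tumors 92, 93 and 94. Ighm took 13.3%, 63.9% and 8.75% against 10.6%, 21.03% and 31.3%, leading in tumor 66. By FPKM, Ighm also led in Prmt3 LKO tumor 94, with 36.2% against 34.2% for Igha. The IgG genes together took 19.4%, 11.0% and 25.5% against 29.97%, 14.8% and 26.0%. All of these ranges overlapped between groups, and the differences of the group means (1.60 percentage points for IgA, -7.67 for IgM and 4.94 for IgG, Prmt3 LKO minus Prmt3 f/f) were smaller than the spread between tumors (pooled SDs of 18.96, 22.8 and 7.57 points). Leaving out tumor 66 turned the IgA difference to -12.2 and the IgM difference to 9.94 points, and brought the IgG difference to 1.13 points. Ighe, the IgE constant gene, had 3 counts in all, in Prmt3 LKO tumor 94, and was no member.

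**Figure D3:**
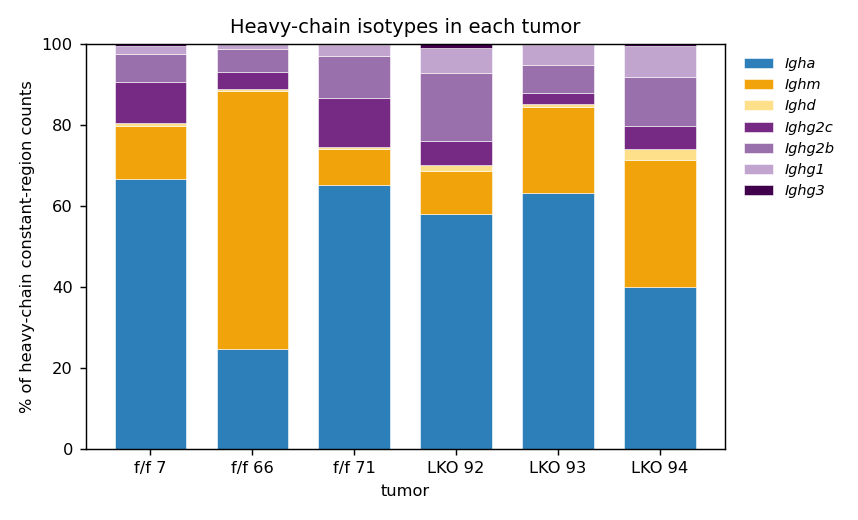
Share of each heavy chain constant gene (stacked colors) in the heavy chain constant counts of each tumor (x axis), in percent (y axis). Igha has the most counts in every tumor but Prmt3 f/f 66, where Ighm takes 63.9%.

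The V genes showed which tumors were led by few segments. In each Prmt3 f/f tumor another gene was first. Ighv1-55 took 10.7% of the IGHV counts of tumor 7 (150 of 1405; Wilson 95% interval 9.17% to 12.4%), Ighv1-82 took 19.6% in tumor 66 (320 of 1632; 17.8% to 21.6%), and Ighv8-12 took 9.04% in tumor 71 (244 of 2698; 8.02% to 10.2%). Among Prmt3 LKO tumors, Ighv1-9 led in tumor 92 with 10.2% (32 of 314; 7.31% to 14.0%), Ighv1-26 in tumor 93 with 9.43% (73 of 774; 7.57% to 11.7%), and Ighv1-82 and Ighv1-64 shared the first place in tumor 94 with 13 of 145 counts each (8.97%; 5.31% to 14.7%).

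The kappa side was more skewed in controls. Igkv10-96 took 15.6% of the IGKV counts of Prmt3 f/f tumor 7 (341 of 2191; Wilson 95% interval 14.1% to 17.1%), Igkv19-93 took 13.1% in tumor 66 (261 of 1986; 11.7% to 14.7%) and Igkv4-57 took 20.96% in tumor 71 (755 of 3602; 19.7% to 22.3%). In Prmt3 LKO tumors the leaders were Igkv1-88 with 8.28% in tumor 92 (37 of 447; 6.06% to 11.2%), Igkv6-15 with 7.75% in tumor 93 (90 of 1161; 6.35% to 9.43%) and Igkv4-68 with 10.7% in tumor 94 (28 of 262; 7.50% to 15.01%). The share of the leading IGKV gene did not overlap between groups, with means of 16.6% ± 4.003 and 8.91% ± 1.57 (SD, n = 3). The intervals of the nearest pair, tumors 66 and 94, did overlap.

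Tumor 66, the tumor led by Ighm, was the most skewed on the heavy chain side. Its first 3 IGHV genes, Ighv1-82, Ighv1-9 and Ighv9-3, took 42.8% of the IGHV counts, whereas the first 3 took 23.4% to 25.5% in the other tumors. Its first 3 IGKV genes were Igkv19-93, Igkv17-127 and Igkv14-111. Bulk reads do not pair a V gene with a constant gene or a heavy with a light chain, so whether these V genes belonged to the IgM transcripts was not tested.

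**Figure D4:**
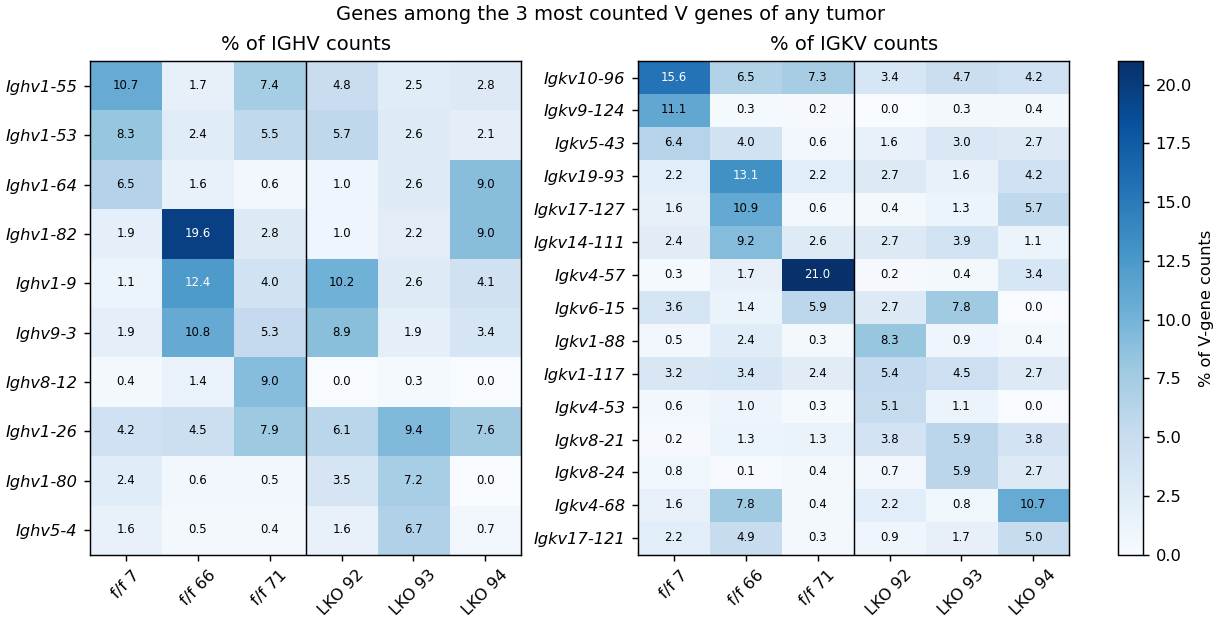
Share of the IGHV counts (left) and of the IGKV counts (right) that each gene took in each tumor, in percent, for all genes among the 3 most counted of any tumor (rows) in the Prmt3 f/f and Prmt3 LKO tumors (columns, split by the line). High cells such as Ighv1-82 in Prmt3 f/f 66 (19.6%) and Igkv4-57 in Prmt3 f/f 71 (20.96%) stand in single columns.

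Several V genes were almost confined to 1 tumor. Igkv9-124 had 243 of its 262 counts in Prmt3 f/f tumor 7, with 6 and 8 in the other controls and 0, 4 and 1 in the Prmt3 LKO tumors. Igkv4-57 had 755 of 810 counts in Prmt3 f/f tumor 71, and the other tumors held 7, 33, 1, 5 and 9. Ighv8-12, printed above for the same tumor, had 244 of 275 counts there, Ighv1-42 had 189 of 212, and Igkv4-79 had 151 of 165. In tumor 66, Ighv4-1 had 85 of 106 counts. These examples were chosen after their values were seen.

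Counted by a fixed share, 10 of the 114 V genes had at least 75% of their summed CPM in 1 tumor. That tumor was Prmt3 f/f 7 for 2, Prmt3 f/f 66 for 2, Prmt3 f/f 71 for 6 and a Prmt3 LKO tumor for 0. The lower immunoglobulin level of the Prmt3 LKO tumors makes such a share harder to reach there. The median V gene had 43.7% of its summed CPM in its top tumor. Prmt3 f/f tumors 7, 66 and 71 were the highest for 31, 25 and 43 V genes, and Prmt3 LKO tumors 92, 93 and 94 for 3, 12 and 0.

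Genes used by several controls were also seen. Igkv10-96, the gene with most counts among the kappa V genes, stood at 15.7, 6.06 and 9.28 CPM in Prmt3 f/f and at 0.857, 2.43 and 0.552 CPM in Prmt3 LKO tumors. All controls were above all Prmt3 LKO tumors (log2 fold change -2.99, SE 0.58, edgeR adjusted p = 0.592). Ighv1-81 was at 3.32, 1.40 and 2.88 CPM against 0.343, 0.541 and 0.0502 CPM (log2 fold change -2.99, SE 0.68, edgeR adjusted p = 0.592). With Ighg2c, these had the smallest unadjusted p of the members whose groups did not overlap.

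Leaders of single controls that passed the count filter had lower Prmt3 LKO values too, with wider errors. Igkv19-93 was at 2.26, 12.2 and 2.81 CPM in Prmt3 f/f against 0.685, 0.812 and 0.552 CPM (log2 fold change -3.05, SE 0.71, edgeR adjusted p = 0.592), and without tumor 66 the log2 fold change was -1.88. Ighv1-82 was at 1.199, 14.9 and 2.64 CPM against 0.171, 0.766 and 0.653 CPM (log2 fold change -3.51, SE 1.006, edgeR adjusted p = 0.606), and -1.83 without tumor 66. Ighv1-55 was at 6.92, 1.26 and 7.03 CPM against 0.857, 0.857 and 0.201 CPM (log2 fold change -2.98, SE 0.75, edgeR adjusted p = 0.592). In all 3 genes each Prmt3 LKO tumor was below each control. The leaders of tumor 71 did not pass the filter. Of these, Igkv4-57 overlapped between groups, at 0.323, 1.54 and 26.5 against 0.0571, 0.225 and 0.452 CPM. Ighv8-12 did not overlap, at 0.277, 1.07 and 8.57 against 0, 0.0902 and 0 CPM. All of these genes were picked for high counts in a control, which favors lower Prmt3 LKO values.

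Ighv1-26, Igkv6-15 and Igkv1-88 led in Prmt3 LKO tumors, and their values overlapped between groups. Ighv1-26 was at 2.72, 3.45 and 7.45 CPM in Prmt3 f/f and at 1.09, 3.29 and 0.552 CPM in Prmt3 LKO tumors. Igkv6-15 was at 3.64, 1.26 and 7.41 CPM against 0.685, 4.06 and 0 CPM, where a count of 0 in tumor 94 allows up to 0.151 CPM. Igkv1-88, first in tumor 92, was at 0.553, 2.24 and 0.422 CPM against 2.11, 0.451 and 0.0502 CPM, so that tumors 66 and 92 had similar values. Igkv1-117 stood at 3.23, 3.12 and 2.99 CPM in controls against 1.37, 2.34 and 0.352 CPM, so that every Prmt3 LKO tumor was below every control. Its transcript is 97.5% identical to that of Igkv1-110, so its separate count is uncertain.

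The 9 members whose mean was not lower in Prmt3 LKO were all V genes: Igkv8-21, Igkv8-24, Igkv8-28, Igkv12-47, Igkv3-10, Ighv1-80, Ighv5-4, Ighv9-2 and Ighv1-5. In 8 of them, all but Ighv1-5, tumor 93 had more counts than the other Prmt3 LKO tumors. Igkv8-24 was at 0.784, 0.0932 and 0.527 CPM in Prmt3 f/f against 0.171, 3.11 and 0.352 CPM (log2 fold change 1.38, SE 1.09, edgeR adjusted p = 0.907), and -0.82 without tumor 93. Ighv1-80 had 34, 10 and 14 counts in controls and 11, 56 and 0 in Prmt3 LKO tumors.

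By family, Ighv1 took most of the heavy chain V counts in every tumor. The Ighv1 family, to which 33 of the 54 IGHV members belong, took 70.5%, 65.1% and 67.8% of the IGHV counts in Prmt3 f/f and 64.0%, 62.1% and 71.7% in Prmt3 LKO tumors. Smaller IGHV families varied more between tumors, such as Ighv8 at 1.99%, 3.55% and 10.2% against 2.87%, 0.388% and 2.76%, and Ighv6 at 0.854%, 4.72% and 2.78% against 6.37%, 9.43% and 0.690%. Both overlapped between groups and were picked as examples after their values were seen. Among kappa families, the Igkv4 family took 8.58%, 14.1% and 36.3% against 16.6%, 12.3% and 25.6%, with Igkv4-57 behind the value of tumor 71. The Igkv8 family took 4.75%, 4.33% and 7.19% in Prmt3 f/f and 12.5%, 16.9% and 12.2% in Prmt3 LKO tumors, without overlap, and was chosen for mention after its values were seen.

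The diversity of the V genes was measured by the effective number of genes, the exponential of the Shannon entropy of their shares, which is the number of equally used genes that would give the same entropy. For IGHV it was 32.9, 23.3 and 29.9 in Prmt3 f/f and 30.4, 36.1 and 30.8 in Prmt3 LKO tumors, with overlap (28.7 ± 4.92 against 32.4 ± 3.18, SD, n = 3). For IGKV it was 29.96, 27.7 and 28.6 in Prmt3 f/f and 39.8, 38.8 and 33.8 in Prmt3 LKO tumors, without overlap (28.7 ± 1.14 against 37.5 ± 3.23). The inverse Simpson index corrected for depth, which gives more weight to leading genes, was 17.9, 17.4 and 14.96 for IGKV in Prmt3 f/f and 33.8, 31.2 and 29.7 in Prmt3 LKO tumors. Even use was thus greater in the Prmt3 LKO tumors among kappa V genes, where the first 5 genes took 42.9% to 47.5% of IGKV counts in controls and 27.5% to 29.8% in Prmt3 LKO tumors.

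The number of different V genes depended on depth. Of the 58 IGKV members, 57, 57 and 58 were seen at least 1 time in controls, against 56, 55 and 44 in Prmt3 LKO tumors 92, 93 and 94. Brought to the 262 IGKV counts of tumor 94, the expected numbers were 46.5, 45.03 and 45.95 against 51.3, 49.0 and 44, which overlapped. For IGHV at the 145 counts of tumor 94 they were 39.4, 35.2 and 36.6 against 38.4, 41.8 and 41, which also overlapped. The depth of the Prmt3 LKO tumors, with 145 to 774 IGHV counts, cannot show whether the missing genes were absent.

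**Figure D5:**
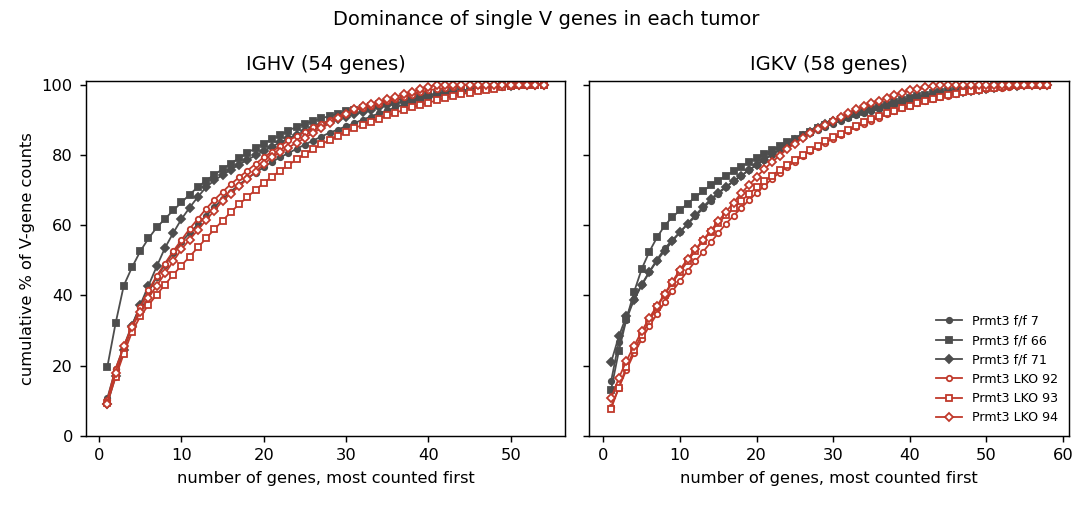
Cumulative share of the IGHV (left) and IGKV (right) counts in percent (y axis) against the number of genes, most counted first (x axis), for each tumor (filled, Prmt3 f/f; open, Prmt3 LKO). For IGKV, 6 to 8 genes reach 50% of the counts in Prmt3 f/f tumors and 11 to 13 in Prmt3 LKO tumors; for IGHV the numbers are 5 to 9 and 9 to 11.

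The use of V genes was only weakly alike between any tumors. Across the 58 IGKV genes, Spearman's rho between the shares of a pair of tumors was 0.04 to 0.40 among Prmt3 f/f tumors, 0.23 to 0.41 among Prmt3 LKO tumors and 0.23 to 0.43 between the groups. Across the 54 IGHV genes the ranges were 0.15 to 0.34, 0.19 to 0.30 and 0.10 to 0.44. These are descriptions across genes, which are not independent replicates, and each includes counting noise of the shallower library. The ratio of V to constant counts overlapped between groups for the kappa chain: IGKV counts per Igkc count were 0.699, 0.703 and 0.659 in Prmt3 f/f and 0.753, 0.701 and 0.681 in Prmt3 LKO tumors. IGHV counts per heavy chain constant count were 0.207, 0.209 and 0.206 against 0.203, 0.171 and 0.138, so that every Prmt3 LKO tumor was below every control, with tumor 94 the lowest.

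The B cell markers were lower in most cases, by less than the immunoglobulin sum. Over the B cell list of 18 genes, the summed level was 33.4 to 42.3 CPM in Prmt3 f/f and 22.7 to 29.5 CPM in Prmt3 LKO tumors, 71.7% of the control mean. Of 12 tested genes, 11 had a negative and 1 a positive log2 fold change (median -0.47). In the edgeR test 0 passed the adjusted threshold, and 1 was lower at an unadjusted p under 0.05 with the 2-fold limit. Those limits also hold for the list counts that follow. Of all genes tested, 1.77% were lower and 0.317% higher by them. The 1 lower B cell gene was Spib, a transcription factor of B cells, at 2.49, 1.96 and 1.69 against 0.571, 1.22 and 0.301 CPM. With a tumor left out, 0 (without tumor 92) to 2 (without tumor 71) genes were lower, and without tumor 7 Spib was not among them. Ms4a1, which encodes the B cell surface protein CD20, was at 1.75, 0.792 and 0.738 against 0.171, 0.541 and 0.603 CPM, without overlap (log2 fold change -1.28, SE 0.59, edgeR adjusted p = 0.774). Cd79a and Cd79b, which encode the signaling partners of the B cell receptor and were named for that role outside the rule for marker genes, had log2 fold changes of -0.55 (SE 0.39) and 0.05 (SE 0.31, the 1 positive value; edgeR adjusted p = 0.892 and 0.994).

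Among 17 plasma cell genes, 15 were tested and 0 passed the adjusted edgeR quasi-likelihood test. Of the 15, 12 had a negative and 3 a positive log2 fold change (median -0.17). The positive ones were Sdc1 (0.35), Creld2 (0.38) and Ssr4 (0.28). Tnfrsf13b, a receptor for the survival factors BAFF and APRIL, was lower at an unadjusted p under 0.05, with 2.86, 1.82 and 1.41 CPM in Prmt3 f/f against 0.343, 0.631 and 0.402 CPM (log2 fold change -2.11, SE 0.45, edgeR adjusted p = 0.592). With DESeq2 and with the edgeR exact test, the adjusted p of Tnfrsf13b was under 0.05. Without tumor 93, 3 genes were lower by the unadjusted p, Mzb1 and Pou2af1 besides. Mzb1, a chaperone of antibody assembly, was at 1.75, 1.26 and 2.003 against 0.857, 1.26 and 0.452 CPM. Slamf7 was at 5.12, 6.62 and 4.43 against 2.28, 2.71 and 3.57 CPM, without overlap but by less than 2-fold. Its log2 fold change was -0.91 (SE 0.27, edgeR adjusted p = 0.606). Sdc1 was at 237, 203 and 301 against 249, 323 and 371 CPM. Txndc5 was at 78.7, 139 and 242 against 221, 127 and 110 CPM, and both genes overlapped between groups. The list's summed level was 967 to 1061 CPM against 1040 to 1096 CPM, most of it from genes such as Xbp1 (299 to 464 against 274 to 337 CPM), which liver cells also express.

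Markers of other blood cells were lower in the same tumors. The list of 7 genes of all leukocytes summed to 158 to 223 CPM in Prmt3 f/f and 89.2 to 121 CPM in Prmt3 LKO tumors (55.7% of the control mean). By those limits 2 of 7, Plek and Selplg, were lower, against 1.77% of all genes tested. Ptprc, which encodes the leukocyte antigen CD45, was at 41.0, 39.6 and 39.6 against 19.1, 23.7 and 25.7 CPM (log2 fold change -0.81, SE 0.15, edgeR adjusted p = 0.592). The T cell list summed to 33.6 to 42.4 against 7.94 to 24.4 CPM (44.0%). Of its genes, 6 of 10 were lower by those limits, against 1.77% of all genes tested. Cd8a was among them, at 5.44, 5.45 and 6.89 against 1.26, 2.75 and 2.41 CPM. With a tumor left out, 2 (without tumor 92) to 8 (without tumor 93) of the T cell genes and 0 (without tumor 92) to 4 (without tumor 71) of the leukocyte genes were lower. In neither list did a gene pass the adjusted edgeR quasi-likelihood test. Ptprc, Plek and Cd8a each had an adjusted p under 0.05 with DESeq2 and with the edgeR exact test. The part of these 2 lists in the immunoglobulin result was not tested.

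Genes that mark organs rich in B cells were also measured. The lymph node and spleen list summed to 86.8 to 109 CPM in Prmt3 f/f and 24.3 to 93.6 in Prmt3 LKO tumors (53.4%, and 31.9% without tumor 93). In it, 4 of 13 genes, Ccl21a, Ccl19, Glycam1 and Nkx2-5, were at 0 in all tumors. Most of the sum came from Hbb-bs (group means 44.5 against 18.5 CPM), Ltb (28.4 against 22.4) and Hba-a1 (15.7 against 6.11). Hbb-bs, a hemoglobin gene and a sign of blood, was at 40.2, 47.4 and 46.0 against 16.9, 27.3 and 11.3 CPM (log2 fold change -1.27, SE 0.30, edgeR adjusted p = 0.592). The gut list summed to 38.3 to 93.2 against 44.9 to 63.0 CPM (88.4%), with Muc2, Cdx2 and Defa24 at 0 in all tumors.

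Among genes that act on antibodies or their making, few differed by 2-fold. The list of immunoglobulin transport and Fc receptors summed to 960 to 1612 CPM against 516 to 1347 CPM (83.5%). All 10 tested had a negative log2 fold change (median -0.31). By the limits above 1 was lower, the macrophage receptor gene Marco, at 12.0, 37.2 and 18.3 against 4.11, 4.06 and 5.73 CPM. Fcer1g, at 23.6, 21.1 and 13.8 against 11.4, 10.2 and 12.8 CPM, was lower by less than 2-fold but without overlap. So was Fcgr4, at 14.9, 11.3 and 13.4 against 9.31, 8.16 and 9.69 CPM. Pigr, which carries IgA and IgM, was at 529, 501 and 1160 against 696, 203 and 918 CPM, and Fcgrt, the neonatal Fc receptor, at 108, 133 and 143 against 145, 95.1 and 132 CPM, both overlapping. Class switching and B cell survival signals summed to 109 to 211 against 114 to 180 CPM (94.9%), with Il4 at 0 in all tumors. All 7 tested had a negative log2 fold change (median -0.11), and 0 were lower by the limits above. The pre-B and germinal center list summed to 12.8 to 35.4 against 13.2 to 17.4 CPM (72.6%, and 113% without tumor 7), with Rag1, Rag2, Vpreb2 and Rgs13 at 0 throughout. Hepatocyte genes summed to 95.2% of the control mean with 0 of 10 lower or higher, and the liver tumor list to 27.6% with 2 of 10 lower at an unadjusted p under 0.05, its sums being 4804, 1579 and 612 against 684, 763 and 486 CPM. Prmt3 f/f tumor 7 carried most of it, with Spp1, which encodes osteopontin, at 4072, 977 and 309 against 339, 265 and 184 CPM and the imprinted RNA gene H19 at 201, 9.37 and 11.3 against 1.83, 16.0 and 6.98 CPM. Without tumor 7 the list stood at 58.8% of the control mean, and Spp1 was the 1 gene lower by those limits, while 6 were lower without tumor 71.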

How the data were processed

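RNA of 3 Prmt3 f/f and 3 Prmt3 LKO tumors was sequenced as paired-end reads. The submitters' processing notes name bcl2fastq 2.19, HISAT2 2.0.4, StringTie 1.3.0 and GRCm38; the counting tool, its treatment of strand and of reads that match several genes, and the annotation release are not given in the sources used here. The authors deposited whole read counts per gene and, beside them, FPKM (reads scaled to gene length and library size); both were used as deposited. The members and the marker lists were chosen with earlier results of these data known.

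Counts were fitted with edgeR 4.0.16 (TMM factors, filterByExpr with a minimum count of 10 and total of 15, glmQLFit and glmQLFTest) in R 4.3.3. P-values were adjusted by Benjamini-Hochberg over 13892 genes, and calls needed an adjusted p under 0.05 together with a 2-fold difference (ratio 2 or 0.5). Fold changes are Prmt3 LKO over Prmt3 f/f. CPM used library size times the TMM factor. Single values were compared by exact two-sided permutation of the 6 tumors. Alternatives were DESeq2 1.42.0, limma 3.58.1 (voom, and log2(FPKM + 1) and log2(FPKM + 0.1)), the edgeR exact test, library size alone, other filters and each tumor left out. Scripts were tested on simulated counts.

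Shares were computed from counts, with Wilson 95% intervals. Library totals of 18440244 to 27976598 counts put the floor of 3 counts, on this CPM scale, at 0.105 to 0.171 CPM. Gene names and coordinates are those of the files. Named genes were Prmt3, all constant genes and Jchain, and the 3 most counted IGHV and IGKV genes of each tumor. They also held the 3 leading IGLV genes, of which 2 were members. Next came the 3 members per direction with the smallest unadjusted p among those without overlap. From each marker list they held the 3 with the highest mean CPM or smallest p. Not all marker genes that fit this rule are printed above, and some printed ones fall outside it.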

Additional observations from a re-analysis of the deposited data

How the results depend on the processing

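No paired analysis was possible because the groups share no replicate numbers. The quasi-likelihood test gave 0 members lower, while DESeq2 gave 9, the edgeR exact test 5, an unadjusted p 31 and an unadjusted p without the count filter, an alternative chosen after seeing the data, 58; the other fits gave 0, and no fit gave a member higher. With an unadjusted p, leaving out a tumor gave 25 (without Prmt3 LKO tumor 94) to 57 (without tumor 93) members lower. The median log2 fold change ran from -2.40 (without tumor 93) to -1.22 (without tumor 94) with a tumor left out and from -2.11 to -1.47 under the other fits, against -1.48. The summed log2 ratio ran from -2.47 to -1.39. The difference in the effective number of IGKV genes, 8.73, was 12.9 by the inverse Simpson index and 14.8 by its depth-corrected form, chosen after seeing the data; these weigh leading genes more. The share of the leading IGHV gene differed by -0.33 to -5.61 points with a tumor left out, the smallest without tumor 66. Of 735 recomputed gene values over 53 genes, 27 passed the adjusted test, all by DESeq2 or the edgeR exact test, and 24 changed sign. Besides members, Prmt3, Tnfrsf13b, Ptprc, Plek, Cd8a, Marco and Hbb-bs passed both by the adjusted p alone. Ranges with a tumor left out were -0.69 to 0.32 for Ighg1, -1.44 to 1.13 for Ighv1-80, -2.03 to 0.81 for Igkv1-88, -1.07 to 0.56 for Igkv4-53, -0.50 to 1.14 for Igkv8-21, -0.82 to 1.90 for Igkv8-24, -2.04 to 0.34 for Iglc1, -0.10 to 0.18 for Cd79b, -0.70 to 0.23 for Pigr, -0.17 to 0.12 for Fcgrt and -0.23 to 0.078 for Alb. Ighv1-80, at 0.35, was -1.004 with limma-voom, -0.15 on log2(FPKM + 1) and -0.96 on log2(FPKM + 0.1). Marker lists with a tumor left out, and member counts without those that passed the filter through controls alone, were also added after seeing the data. The causes were not tested. Prmt3 LKO libraries held 2057 to 9281 immunoglobulin counts, which limits V genes with few reads.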

Other observations

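Dntt, which encodes the enzyme that adds bases at V gene joints in lymphoid precursors, had 430 counts in Prmt3 f/f tumor 7 against 22 and 44 in the other controls and 46, 119 and 98 in the Prmt3 LKO tumors. Rag1 and Rag2, which cut the DNA for V gene joining, and Vpreb2 were at 0 in all 6 libraries, and Vpreb1 had 5, 1 and 8 against 7, 4 and 1 counts. The Dntt level of tumor 7, 19.8 CPM, gave its group a wide spread, and the log2 fold change was -0.78 (SE 1.006, edgeR adjusted p = 0.957).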
